A study of Mus musculus with 10 samples.

Results

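The major urinary protein (Mup) genes were followed as a family in livers of 5 wild-type (WT) mice and 5 mice lacking thyroid hormone receptor beta in the liver (Thrb-KO), a comparison that asks which liver genes depend on this receptor. Members were all genes whose mouse symbol starts with Mup followed by a digit or by -ps, the suffix of pseudogenes. This gave 49 of the 55401 gene identifiers in the count files, 22 of them protein-coding and 27 annotated as pseudogenes. The labels give the strain as C57Bl6/J in the sample titles, and as C56Bl6/J in the strain field, for both groups. Thrb-KO mice came from a cross of Thrb-loxP/loxP mice with Afp-Cre mice, so the recombinase was driven by the promoter of alpha-fetoprotein, a gene of fetal hepatocytes. Mice were fed standard chow and received no treatment. The age and sex stated by the study are those of wild-type mice purchased for another of its experiments, and none are given for these mice in the sources used here. In these counts the Y-linked genes Ddx3y, Uty, Kdm5d and Eif2s3y were at or above 8.42 CPM in every library, and Xist did not exceed 0.187 CPM. CPM are counts scaled to the library total, here after TMM scaling.

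Mup proteins are small secreted lipocalins, barrel-shaped carriers that bind volatile pheromones in the blood and are passed into the urine, where male mice release them in bulk. The genes lie side by side as a young and repeatedly duplicated cluster on mouse chromosome 4, and the copies are read mainly in hepatocytes. Pulses of growth hormone acting through STAT5b, androgens, glucocorticoids and thyroid hormone are all known to raise their transcription, and many of them are more active in males.

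The family held 1 group of nearly identical copies, and how well a read can be placed within it sets what each count means. Over the coding sequences, the 16 copies of this group were 98.17 to 99.82% identical to each other (global alignment, share of the longer sequence), while their identity to the other 6 coding members, Mup3, Mup4, Mup5, Mup6, Mup20 and Mup21, was 82.16 to 91.39%. Of the group, 13 copies share a coding length of 543 bases, and Mup7 differed from Mup17 at 7 of these, Mup14 and Mup15 at 8, and Mup9 and Mup13 at 4. The first 60 coding bases, which begin with the start codon, are shown for 7 copies because they make visible how little tells the copies apart. Capitals mark bases that differ from Mup17 (GENCODE transcripts, GRCm38, minus strand, written 5′ to 3′).
Mup17 (chr4:61595701-61595760): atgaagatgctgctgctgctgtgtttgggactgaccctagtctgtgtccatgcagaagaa
Mup15 (chr4:61439573-61439632): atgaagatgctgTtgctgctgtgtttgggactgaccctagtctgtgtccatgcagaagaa
Mup16 (chr4:61519361-61519420): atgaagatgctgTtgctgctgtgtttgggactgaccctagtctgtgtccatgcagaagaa
Mup7 (chr4:60070241-60070300): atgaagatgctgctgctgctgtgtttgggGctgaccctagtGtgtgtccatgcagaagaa
Mup14 (chr4:61303830-61303889): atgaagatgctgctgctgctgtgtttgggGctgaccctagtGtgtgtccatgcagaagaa
Mup1 (chr4:60501790-60501849): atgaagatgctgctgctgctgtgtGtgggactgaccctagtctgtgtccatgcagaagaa
Mup12 (chr4:60741156-60741215): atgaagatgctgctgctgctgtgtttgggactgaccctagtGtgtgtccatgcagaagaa

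In this stretch Mup15 and Mup16 could not be told apart, nor could Mup7 and Mup14. The authors left out reads that mapped to several places, so a read from such a stretch was counted for no gene. The share of a copy's transcript 100-mers (runs of 100 bases) that occur in no other annotated gene was taken as a guide to what could be counted. It was 97.8% for Mup3, 95.5% for Mup21 and 61.2% for Mup20, whose only partner was the pseudogene Mup-ps19. Within the near-identical group it was lower throughout, at 40.6% for Mup17, 24.3% for Mup14, 23.9% for Mup7, 17.6% for Mup16, 2.66% for Mup15, and 0 for Mup19 and Mup22. Mup22 and Mup19 nevertheless had 9567 and 4715 counts over all libraries. Counts of a copy in this group may therefore miss its own reads or include reads of other copies, by an unknown amount. Levels of different copies in this group cannot be ranked safely, and values of single copies are uncertain. The counting also ignored strand, but among the members only Mup-ps6 and Mup-ps16 have exon bases that overlap an exon of another gene, by 111 and 262 bases.

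The targeted gene was lower in the livers labelled Thrb-KO. Thrb was at 33.4, 34.2, 32.5, 33.5 and 32.9 CPM in WT and at 25.1, 24.9, 28.8, 25.9 and 28.8 in Thrb-KO livers, a fall by 0.32 on the log2 scale (SE 0.07, adjusted p = 0.0359 with edgeR). The groups did not overlap. The counts cover every exon, also those outside the deleted part, which makes this a partial check of the labels. Dio1, the deiodinase gene that thyroid hormone switches on in liver, fell by 3.03 on the log2 scale, from 141 to 208 CPM in WT to 13.8 to 25.9 in Thrb-KO livers (adjusted p = 1.26e-05 with edgeR). Of the other listed regulators of Mup genes, Thra, the glucocorticoid receptor gene Nr3c1 and Zhx2 did not pass.

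Thrb-KO livers had less of most near-identical Mup copies and more Mup20, while the other divergent copies that were expressed, Mup3 and Mup21, had higher means that did not pass the test. Of the 49 members, 44 had a count in some library and 23 passed the filter of at least 1 CPM in at least 5 libraries, 19 coding genes and 4 pseudogenes. Mup-ps16 passed only through WT libraries, and Mup9 and Mup13 reached 1 CPM in all 5 WT but only 2 Thrb-KO libraries each. With edgeR's quasi-likelihood test and Benjamini-Hochberg adjustment over all 12234 genes tested, 15 members passed an adjusted p of 0.15, the threshold of the study, 14 lower and 1 higher in Thrb-KO. Over all genes tested, 4.08% passed in either direction, 2.57% lower and 1.51% higher. At an adjusted p of 0.05, 11 members remained, all of them lower, against 1.35% of all genes in either direction and 1.03% lower. The median log2 fold change, as Thrb-KO minus WT, was -1.76 over the members tested and 0.00054 over all genes tested. All values of one genotype lay outside the range of the other for 13 lower members and 1 higher member, against 2.26% and 1.38% of all genes (3.64% in either direction). The plot of levels in each liver shows both sides of this.

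**Figure D1:**
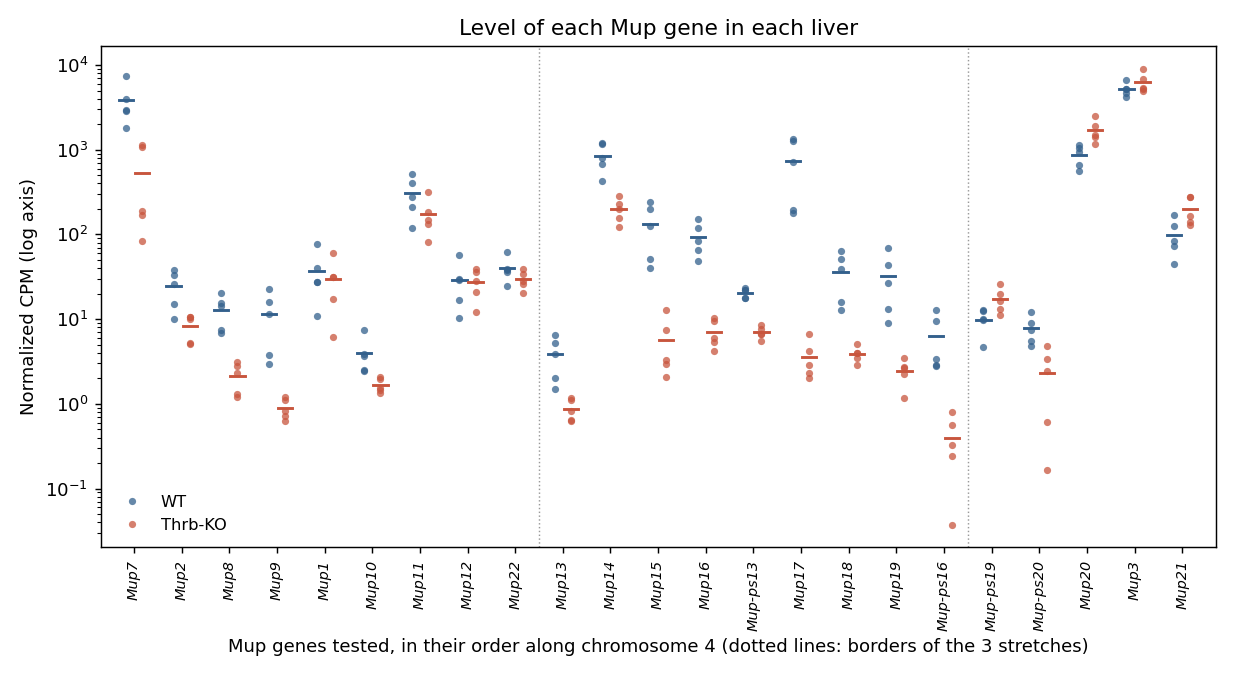
Normalized CPM (log axis) of the 23 tested Mup genes in each of the 5 WT and 5 Thrb-KO livers, ordered along chromosome 4; each point is 1 mouse and each short line is a group mean. Mup17 lies between 179 and 1337 in WT and between 2.01 and 6.60 in Thrb-KO livers, whereas the groups overlap for Mup3, the member with the highest mean CPM.

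Mup17 (ENSMUSG00000096688, chromosome 4, 61591929 to 61595871) fell furthest. Its level was 195, 179, 1257, 1337 and 707 normalized CPM in the 5 WT livers and 2.01, 6.60, 2.30, 2.85 and 4.17 in the 5 Thrb-KO livers. Even the lowest WT liver was far above the highest Thrb-KO liver, although WT livers differed among themselves by 7.48-fold. The means were 735 ± 556 (SD, n = 5) and 3.59 ± 1.88 (SD, n = 5), a 205-fold difference, with a log2 fold change of -7.68 (SE 0.81, adjusted p = 0.00225 with edgeR).

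Mup15 and Mup16 lie in the same part of the cluster and moved the same way. Mup15 was at 51.1, 40.1, 201, 239 and 125 CPM in WT and at 2.92, 12.7, 2.09, 3.31 and 7.39 in Thrb-KO livers, with a log2 fold change of -4.53 (SE 0.71, adjusted p = 0.0165 with edgeR). Mup16 was at 65.7, 48.3, 82.9, 153 and 119 CPM in WT and at 5.38, 10.3, 4.25, 6.06 and 9.58 in Thrb-KO livers, and fell by 3.72 on the log2 scale (SE 0.38, adjusted p = 0.00186 with edgeR). In both genes the groups were far apart. The ratio of Mup17 to Mup15 within a liver was 3.81 to 6.24 in WT and 0.518 to 1.10 in Thrb-KO, so the counts of these copies did not fall by a common factor.

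Mup7 had the highest counts of the near-identical group. It was at 2857, 1820, 3968, 7505 and 2963 CPM in WT livers and at 190, 1078, 83.5, 168 and 1122 in Thrb-KO livers. The groups did not overlap, but Thrb-KO replicates 2 and 5 stood well above the other 3 Thrb-KO livers, a range of 13.4-fold. The log2 fold change was -2.85 (SE 0.79, adjusted p = 0.135 with edgeR), and this call was lost whenever any 1 of the 5 WT mice or of Thrb-KO mice 1, 3 and 4 was left out (adjusted p 0.172 to 0.245) and held without Thrb-KO mouse 2 or 5.

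Mup14, another copy of the group with high counts, was at 672, 430, 792, 1193 and 1157 CPM in WT and at 158, 200, 122, 285 and 228 in Thrb-KO livers. It fell by 2.10 on the log2 scale (SE 0.31, adjusted p = 0.00899 with edgeR), and no Thrb-KO liver reached the lowest WT liver. Its counts rest on a share of unique sequence close to that of Mup7, and its spread within Thrb-KO was 2.33-fold.

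The remaining called copies of the group had lower counts, which, given their little unique sequence, does not show a lower level of mRNA. Mup18 was at 12.9, 15.7, 63.3, 51.5 and 39.0 CPM in WT and at 3.96, 5.10, 2.88, 3.97 and 3.47 in Thrb-KO livers, with a log2 fold change of -3.23 (SE 0.46, adjusted p = 0.0111 with edgeR). Mup19, with no unique 100-mer and therefore the least certain of all called members, was at 8.97, 13.0, 68.6, 26.7 and 43.3 CPM against 2.22, 3.45, 1.17, 2.62 and 2.72, and fell by 3.72 on the log2 scale (adjusted p = 0.0190 with edgeR). In both, every WT liver exceeded every Thrb-KO liver. Mup9 was at 3.82, 2.97, 15.8, 22.9 and 11.4 CPM in WT and at 0.625 to 1.20 in Thrb-KO livers, and fell by 3.66 on the log2 scale (adjusted p = 0.0190 with edgeR). Mup8 was at 7.45, 6.82, 15.3, 20.5 and 14.4 CPM in WT and at 1.20 to 3.15 in Thrb-KO livers, a fall by 2.58 on the log2 scale (adjusted p = 0.00858 with edgeR). Both were again apart between genotypes. Mup13 was at 1.51, 1.99, 6.54, 5.24 and 3.85 CPM in WT livers, with all Thrb-KO livers between 0.625 and 1.16, and its log2 fold change was -2.13 (adjusted p = 0.0234 with edgeR). Mup10 was at 2.54, 2.45, 7.43, 3.91 and 3.70 CPM against 1.36 to 2.10, a log2 fold change of -1.25 (adjusted p = 0.0641 with edgeR) that did not pass without Thrb-KO mouse 3 (adjusted p = 0.161 with edgeR). Mup2, unlike every other called member, had groups that overlapped, with 15.2, 9.96, 33.3, 37.9 and 26.01 CPM in WT and 9.97, 10.6, 5.04, 5.26 and 10.6 in Thrb-KO livers. Its log2 fold change was -1.56 (adjusted p = 0.0907 with edgeR), and it did not pass when WT mouse 3 or 5 or Thrb-KO mouse 3 or 4 was left out (adjusted p 0.175 to 0.208).

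Not every near-identical copy passed the test. Mup11 was at 214, 120, 403, 513 and 275 CPM in WT and at 134, 148, 82.0, 184 and 313 in Thrb-KO livers, with a log2 fold change of -0.83 (SE 0.43, adjusted p = 0.447 with edgeR). Mup1, Mup12 and Mup22, with group means between 27.3 and 39.96 CPM, had log2 fold changes of -0.31, -0.08 and -0.43, and their groups overlapped. These 4 copies and the 12 that were called all had fitted values below 0, with a median of -2.35 over the 16 copies. The direction of Mup12 and of Mup1 was not stable, since it turned above 0 without WT mouse 4 (0.34 and 0.15), and for Mup12 also without Thrb-KO mouse 3 or 4 (0.11 and 0.0069). Mup22, which has no unique 100-mer, moved to -0.22 without WT mouse 4.

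Mup20 rose. It encodes darcin, the urinary protein that attracts females to a male's scent, and its level was 657, 943, 1050, 1139 and 559 CPM in WT and 1155, 1908, 1476, 2529 and 1431 in Thrb-KO livers. The lowest Thrb-KO liver lay just above the highest WT liver. The means were 870 ± 251 (SD, n = 5) and 1700 ± 536 (SD, n = 5), 1.95-fold higher in Thrb-KO, with a log2 fold change of 0.97 (SE 0.24, adjusted p = 0.0796 with edgeR). The call was lost without WT mouse 2, WT mouse 5 or Thrb-KO mouse 3 (adjusted p 0.1503 to 0.161), while the log2 fold change stayed between 0.78 and 1.09 when any 1 mouse was left out.

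Mup3, the member with the highest mean CPM in both groups, did not pass. It was at 5154, 4187, 5166, 6702 and 4724 CPM in WT and at 4940, 9044, 5190, 5339 and 6826 in Thrb-KO livers, with a log2 fold change of 0.27 (SE 0.18, adjusted p = 0.563 with edgeR). Its groups overlapped, only Thrb-KO mice 2 and 5 exceeded the highest WT liver, and without Thrb-KO mouse 2 the log2 fold change was 0.11. Mup21 lies next to Mup3 and is its closest relative, with 94.77% identity of coding sequence. It was at 169, 44.4, 83.6, 124 and 73.5 CPM in WT and at 141, 276, 130, 165 and 275 in Thrb-KO livers, with a log2 fold change of 0.997 (SE 0.37, adjusted p = 0.271 with edgeR). Its mean was 1.995-fold higher in Thrb-KO, but WT mouse 1 overlapped the Thrb-KO range, and without this mouse the call was made (adjusted p = 0.130 with edgeR).

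The other coding members, Mup4, Mup5 and Mup6, are known mainly from glands and nasal tissue rather than from liver, and they were close to absent. Mup4 had 3 counts and Mup5 11 counts over all 10 libraries together. Mup6 had 8 to 11 counts per WT library and 1 to 5 per Thrb-KO library. At totals of 26477195 to 28590704 counts per library, 3 counts correspond to 0.105 to 0.113 CPM.

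**Figure D2:**
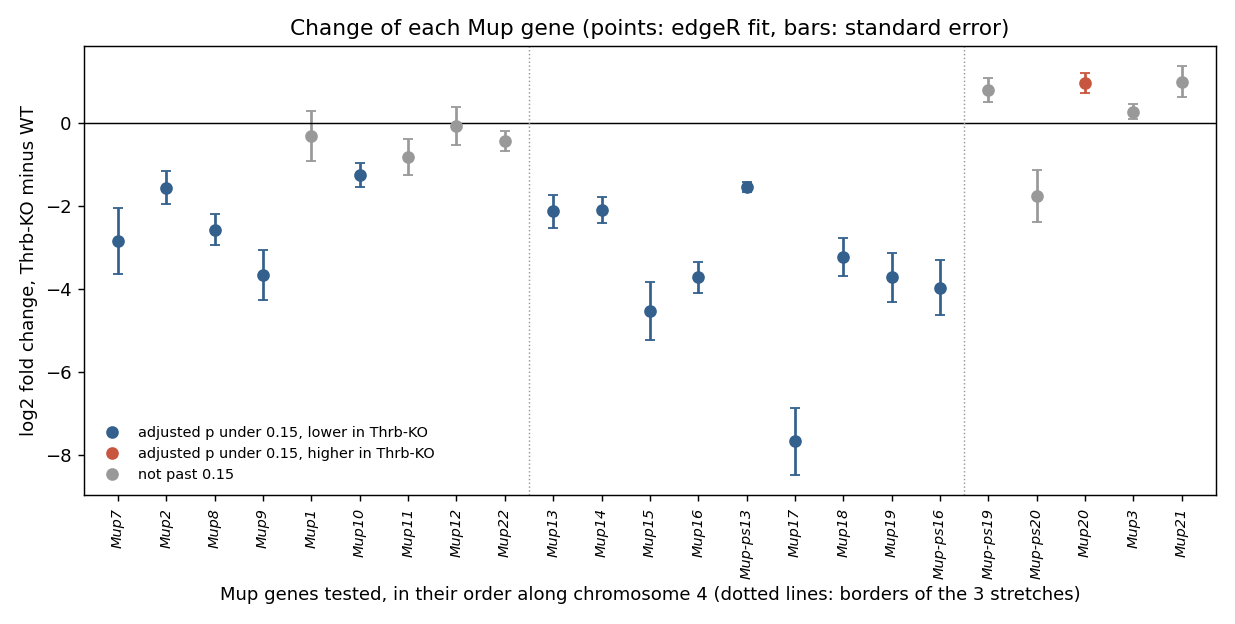
Fitted log2 fold change (Thrb-KO minus WT) of the 23 tested Mup genes in their order along chromosome 4, with bars for the standard error; blue points passed an adjusted p of 0.15 as lower, the red point as higher, and grey points did not pass. All 9 members between the dotted lines lie below 0, from -7.68 for Mup17 to -1.54 for Mup-ps13, and the red point is Mup20 at 0.97.

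The calls were next set out along the chromosome. Except for the processed pseudogene Mup-ps22 on chromosome 11, all members lie between 59956804 and 62150863 of chromosome 4 (GRCm38), and the borders of 3 stretches were drawn after the values had been seen, so no test was made between them. The first stretch (59956804 to 60821463) holds 23 members, of which 9 were tested and 5 called lower. The second (61163063 to 61800237) holds 15 members, of which 9 were tested, and all 9 were called lower with the genotypes apart, Mup-ps16 among them, which only its WT levels had brought through the filter. The third (61831319 to 62150863) holds 10 members, among them Mup5, Mup20, Mup3 and Mup21, of which 5 were tested and 1 was called higher. Median log2 fold changes were -1.25, -3.72 and 0.80 in that order. Summed levels were 4288 ± 2418 CPM in WT and 801 ± 620 in Thrb-KO livers for the first stretch, 1912 ± 980 and 230 ± 67.7 for the second, and 6174 ± 1115 and 8185 ± 1949 for the third (SD, n = 5 each). Without Mup7, the first stretch summed to 466 ± 233 CPM in WT and 273 ± 112 in Thrb-KO livers, so most of its difference was in Mup7.

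Of the pseudogenes of the second stretch, Mup-ps13 and Mup-ps16 passed the filter, and both were called lower. Mup-ps13, between Mup16 and Mup17, had the smallest adjusted p of the family. It was at 22.1, 17.6, 23.3, 21.9 and 17.7 CPM in WT and at 7.71, 6.67, 5.52, 6.72 and 8.59 in Thrb-KO livers, with a log2 fold change of -1.54 (SE 0.13, adjusted p = 9.27e-05 with edgeR). Its spread within a genotype was at most 1.56-fold, below the WT spread of every tested coding copy. In Thrb-KO livers, however, Mup10 had a like spread of 1.547-fold. Of the 100-mers of Mup-ps13, 75.8% were unique. Mup-ps16, whose exons partly overlap those of another predicted gene, was at 2.76, 3.43, 9.54, 2.89 and 12.9 CPM in WT livers. Its 5 Thrb-KO libraries held 23, 1, 7, 10 and 16 counts, and the log2 fold change was -3.98 (adjusted p = 0.0188 with edgeR). Mup-ps12, Mup-ps14 and Mup-ps15, all in the second stretch, did not reach the filter. Mup-ps12 had 32, 18, 56, 50 and 47 counts in WT and 0, 2, 1, 0 and 0 in Thrb-KO libraries. Mup-ps14 had 10 to 37 counts in WT and 0 or 1 in Thrb-KO libraries, and Mup-ps15 had 22 to 43 and 0 or 1. Without the filter on low counts, 8 of the 21 members below it passed an adjusted p of 0.15, all of them lower in Thrb-KO, against 1.42% of all genes in that fit. Mup-ps12, Mup-ps14 and Mup-ps15 were among the 8, whereas Mup-ps9, Mup-ps10 and Mup-ps11 of the same stretch did not pass (adjusted p = 0.658, 0.247 and 0.165 with edgeR). The others of the 8 were Mup6, Mup-ps1 and Mup-ps4 of the first stretch and Mup-ps17 and Mup-ps23 of the third. In that fit Mup-ps17 was at -3.28 and Mup-ps23 at -3.66 on the log2 scale (adjusted p = 0.0195 and 0.0212 with edgeR). In the third stretch, Mup-ps19, the only gene that shares 100-mers with Mup20, was at 4.68 to 12.8 CPM in WT and 11.1 to 26.3 in Thrb-KO livers (log2 fold change 0.80, adjusted p = 0.255 with edgeR). The ratio of Mup20 to Mup-ps19 was 65.6 to 119 in WT and 88.5 to 112 in Thrb-KO livers. Mup-ps20 had a log2 fold change of -1.76 (SE 0.63, adjusted p = 0.265 with edgeR) and groups that overlapped.

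Summed over the family, the counts of copies that fell and of those that did not were added together. The sum over all 49 members was 12375 ± 4345 CPM in WT and 9216 ± 2484 in Thrb-KO livers (SD, n = 5 each), a log2 ratio of -0.43, and ranged from 7952 to 19333 and from 6859 to 12876. The ratio was -0.21 without WT mouse 4, and -1.38 when each copy's counts were divided by its share of unique 100-mers. Such a division is not defined for copies with no unique 100-mer, such as Mup19 and Mup22. It gives most weight to copies with a small share, such as Mup15 at 2.66%. Mup3, Mup20 and Mup21, the tested coding members with fitted values above 0, were set apart with the values known. A lower remainder is therefore partly built in. Without them, the sum was 4248, 2777, 7075, 11368 and 5632 CPM in WT and 623, 1647, 369, 768 and 1848 in Thrb-KO livers. It was 5.92-fold lower on average in Thrb-KO, with no overlap. Mup3, Mup20 and Mup21 together were at 6155 ± 1110 and 8165 ± 1945 CPM. Mup genes took 0.797 to 1.87% of all counts in WT and 0.692 to 1.24% in Thrb-KO libraries.

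**Figure D3:**
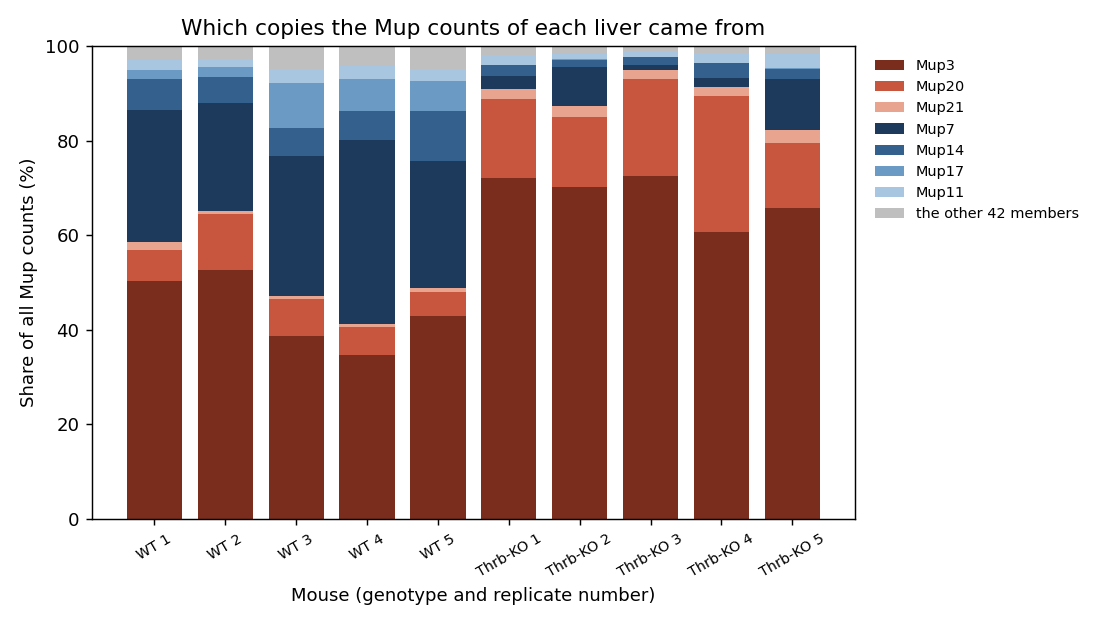
Share of each library's Mup counts (%) by copy, for 5 WT and 5 Thrb-KO mice; reds are Mup3, Mup20 and Mup21, blues are Mup7, Mup14, Mup17 and Mup11, and grey is the sum of the other 42 members. Mup3 makes up 34.7 to 52.7% of the bar in WT and 60.7 to 72.4% in Thrb-KO mice, and the Mup7 segment shrinks from 22.9 to 38.8% to 1.17 to 10.8%.

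The make-up of the Mup counts separated the genotypes in every liver. The third stretch gave 41.3 to 65.3% of the counts in WT and 82.4 to 95.0% in Thrb-KO livers, and the second stretch 9.45 to 20.3% and 1.91 to 3.55%. Mup20 alone went from 5.09 to 11.9% in WT to 13.8 to 28.7% in Thrb-KO livers, and Mup17 from 1.90 to 9.40% to 0.029 to 0.051%. Shares of copies with little unique sequence are shares of what could be counted, not of Mup mRNA, and shares of one total cannot all move in the same direction.

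Members also varied together among mice of the same genotype. WT mouse 4 had the highest WT level in 16 of the 23 tested members and WT mouse 2 the lowest in 16. Among Thrb-KO mice, mouse 2 was highest in 13 and mouse 3 lowest in 14. WT levels of Mup9, Mup17 and Mup19 spanned 7.69-, 7.48- and 7.65-fold, against 1.601-fold for Mup3.

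**Figure D4:**
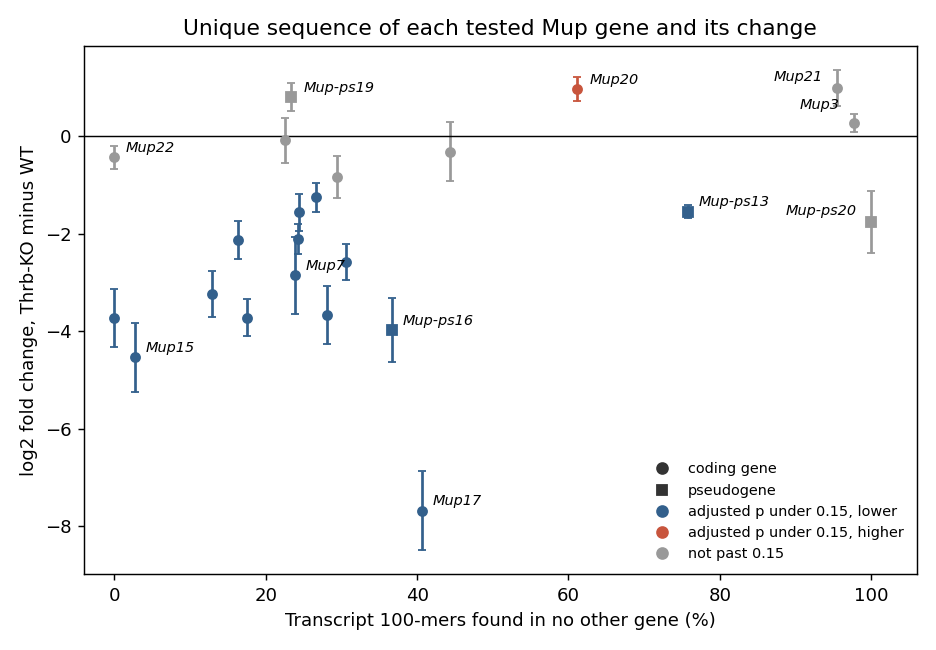
Share of transcript 100-mers found in no other gene (%) on the horizontal axis against the fitted log2 fold change (Thrb-KO minus WT, bars: standard error) for the 23 tested Mup genes; circles are coding genes and squares pseudogenes. The near-identical coding copies lie left of 50% and all below 0, and Mup3, Mup20 and Mup21 lie right of it and above 0.

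The coding members were compared by sequence class, cut at 50% unique 100-mers with the values known, as a description with no test. Of the 16 near-identical copies, all tested, 12 were called lower and none higher, and of the 6 divergent copies 3 were tested, with 0 called lower and 1 higher. Mup6, a divergent copy below the filter, passed as lower in the fit without the filter (-1.58 on the log2 scale, adjusted p = 0.0736 with edgeR). Within the near-identical group, Mup17 had 40.6% and Mup15 2.66% unique 100-mers, and Mup1 and Mup22, which did not pass, had 44.3% and none. Among pseudogenes, Mup-ps13, with mostly unique sequence, was lower too.

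The start regions of the copies were compared for features that go with these classes, as a description. RefSeq start regions (250 bases before to 50 after the start, GRCm38.p6) were matched for 14 of the 22 coding copies. Mup20, the only member called higher, had none, nor did Mup16 or the uncalled copies Mup1, Mup12 and Mup22. All 14 held the letters GACCCATA, seen on either strand in 0.438% of 32851 such regions, and 13 of them held TATATAA, letters of a TATA box, seen in 3.24%; both were chosen from the Mup sequences themselves. The stretch between them is shown for 3 copies that fell and for Mup3 and Mup21, with both elements in capitals, on the minus strand of GRCm38.p6, 5′ to 3′.
Mup17 (chr4:61595851-61595937): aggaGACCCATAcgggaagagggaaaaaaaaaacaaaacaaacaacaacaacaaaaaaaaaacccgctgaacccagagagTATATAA
Mup15 (chr4:61439723-61439809): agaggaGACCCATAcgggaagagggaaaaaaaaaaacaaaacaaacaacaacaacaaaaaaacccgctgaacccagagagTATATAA
Mup18 (chr4:61674116-61674202): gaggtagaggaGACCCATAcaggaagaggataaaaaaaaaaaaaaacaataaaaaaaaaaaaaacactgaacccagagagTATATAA
Mup3 (chr4:62087322-62087408): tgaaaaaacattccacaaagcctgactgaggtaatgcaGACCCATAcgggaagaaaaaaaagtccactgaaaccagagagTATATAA
Mup21 (chr4:62150843-62150929): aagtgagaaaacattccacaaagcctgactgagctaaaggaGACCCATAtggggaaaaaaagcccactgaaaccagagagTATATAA

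The A-rich stretch between the elements was 59 to 71 bases long in the 9 near-identical copies that held both, Mup2, Mup9, Mup10, Mup11, Mup14, Mup15, Mup17, Mup18 and Mup19. It was 31 to 37 bases in the 4 divergent ones, 34 in Mup3, 31 in Mup21, 37 in Mup4 and 35 in Mup6. Of the 9 longer stretches, 7 held 3 to 7 matches to ACAAC, overlapping ones counted. Those of Mup14 and Mup18 held none, although both of these were called lower. Anywhere in the window and on either strand, ACAAC was in 7 of the 14 Mup start regions and in 32.3% of all. Mup11, with 68 bases and 4 matches, was not called. The first base of TATATAA lay 25 to 31 bases before the RefSeq start in 9 copies, 2 to 11 bases before it in Mup11, Mup21 and Mup3, and 12 bases after it in Mup14. The window of Mup7 held no TATATAA. It ended at 60070426, farther from the start codon at 60070300 than the Mup17 window did (61595783 against 61595760). A TATATAA between the Mup7 window and its start codon would have been missed. Letters bound by STAT factors (TTCNNNGAA) were in none of the 14 windows, against 8.30% of all. The half-site of nuclear receptors (AGGTCA, either strand) was in 1, that of Mup4, against 16.3% of all, and 2 half-sites spaced by 4 bases (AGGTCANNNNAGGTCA), the arrangement that thyroid hormone receptors bind, in none of the 14 against 0.0152% of all. These windows say nothing of elements farther away.

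None of 10 genes of the growth hormone and STAT5 axis passed, with a median log2 fold change of 0.041. Igf1, the most abundant of them and a target of growth hormone, was at 533 ± 55.3 CPM in WT and 501 ± 115 in Thrb-KO livers (adjusted p = 0.850 with edgeR). Of 14 other genes known to be more active in male liver, 1 was called higher and 1 lower, with a median of 0.12. Cyp4a12b, a fatty acid hydroxylase of male liver, rose by 1.45 on the log2 scale from 34.8 ± 18.6 to 95.1 ± 23.4 CPM (adjusted p = 0.0893 with edgeR), and Susd4, a membrane regulator of complement, fell by 0.84 from 36.8 ± 9.82 to 20.5 ± 5.57 CPM (adjusted p = 0.127 with edgeR). The most abundant of the 14, Gstp1, was at 1912 ± 485 and 2078 ± 513 CPM. Of 14 genes more active in female liver only Cux2 and Atp6v0d2 passed the filter and neither was called; Cux2 was at 0.489 to 45.7 CPM in WT and 0.309 to 10.1 in Thrb-KO livers.

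Other lipocalins of the liver moved in both directions. Of 9 tested, Lcn2, Orm1 and Orm2 fell and Rbp4, the carrier of retinol, rose by 0.45 on the log2 scale (adjusted p = 0.105 with edgeR), while the most abundant, Ambp, did not pass (-0.40, adjusted p = 0.245 with edgeR). Lcn2 fell by 4.18 (adjusted p = 0.0477 with edgeR), Orm1 by 1.13 (adjusted p = 0.0825 with edgeR) and Orm2 by 4.09 on the log2 scale (adjusted p = 0.0699 with edgeR), all 3 genes of the acute-phase response. Of 14 tested coding neighbours within 500 kb of the cluster or between its members, 1 passed, the lipid-metabolism gene Hsdl2, which rose by 0.61 (adjusted p = 0.0534 with edgeR). The most abundant neighbour, the copper transporter gene Slc31a1, was at 261 ± 10.2 CPM in WT and 265 ± 16.9 in Thrb-KO livers.

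Acute-phase genes also differed between the genotypes in these livers. Of 10 listed, 8 were called lower in Thrb-KO and 10 had fitted values below 0, from Saa2 (-6.06) and Saa1 (-5.03) to Fgb (-0.51) and Crp (-0.13), of which the last pair did not pass. Their summed level was 15995 to 47672 CPM in WT and 10314 to 16488 in Thrb-KO livers, and the mean log2 CPM over the list was 8.90 to 11.1 and 7.18 to 8.44, with no overlap. Their part in the Mup result was not tested and cannot be told apart from the genotype; with this mean as a covariate, 2 members, Mup17 and Mup-ps13, passed (both adjusted p = 0.0488 with edgeR), fitted values of the members kept their direction, and Thrb itself no longer passed. With the covariate, Mup16 was at -3.84 (SE 0.66), Mup9 at -5.06 (SE 0.86) and Mup7 at -2.68 (SE 1.31). Without it they were at -3.72 (SE 0.38), -3.66 (SE 0.60) and -2.85 (SE 0.79) in that order. Mup20, at 0.97 in the main fit, was as low as 0.47 among the settings that kept all 10 libraries. Within WT, the acute-phase mean was highest in mouse 2 (11.1), which had the lowest Mup sum of the WT mice (7952 CPM). WT mouse 4, with the highest Mup sum (19333.5 CPM), had a mean of 9.35. Among Thrb-KO mice, mouse 2 had both the highest mean (8.44) and the highest sum (12876.5 CPM). The markers of hepatocytes, the cells that make Mup proteins, were present at 79178 to 119129 CPM in sum in WT and 94418 to 108054 in Thrb-KO livers, with 0 of 6 called and albumin (Alb) at 74999 ± 14065 and 78588 ± 6230 CPM (SD, n = 5 each). No marker of Kupffer, endothelial, stellate or bile duct cells was called (15 tested). All 5 Kupffer cell markers had fitted values below 0, with a median of -0.75 and a summed level of 77.7 to 269 CPM in WT and 89.7 to 192 in Thrb-KO livers, and their part in the Mup result was not tested. In bulk liver, fewer cells and less RNA per cell cannot be told apart.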

How the data were processed

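Stranded mRNA libraries of liver, 1 per mouse, were mapped by the authors on mm10 (GRCm38) with HISAT2 and counted per gene with HTSeq-count without strand, leaving out reads that mapped to several places or genes; the submitters' processing notes list HISAT2 2.2.1, HTSeq 0.9.1 and edgeR 3.36.0. The deposited values are these raw counts. A deposited table with the authors' own comparison (fold changes and p-values) was not used. Groups follow the genotype labels, 5 mice each.

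Counts were fitted with edgeR 4.0.16 in R 4.3.3 over genes reaching 1 CPM in 5 or more libraries (TMM, robust quasi-likelihood F-test, Benjamini-Hochberg, thresholds 0.15 and 0.05). The standard error is the absolute log2 fold change over the square root of F. The labels number 5 samples per genotype, taken here as separate mice; were they not, p-values would measure only technical spread. Mup symbols, positions and k-mers (100 bases; 50 and 150 as alternatives) come from GENCODE M21, in another release than the authors counted on, and coding alignments from Biopython 1.88, with the annotated coding sequence nearest in length to that of Mup17 taken for each gene. Start regions come from RefSeq on GRCm38.p6. The fit was tested on simulated data.

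Named with values per mouse were members past 0.15 or among the 8 highest mean levels, Thrb, and from each list (growth hormone and STAT5 axis, male- and female-biased genes, hormone receptors, lipocalins, neighbours) the genes past 0.15 and the most abundant one. The members and lists were chosen with earlier results of these data known, and the further marker lists serve as checks of the tissue. The values of 1 listed gene are not reported here. Alternatives were DESeq2 1.42.0, other scalings and filters, no robust settings, the sample number as a block, leaving out each mouse and, chosen after seeing the data, an acute-phase covariate and a correction by unique sequence.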

Additional observations from a re-analysis of the deposited data

How the results depend on the processing

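Of the 15 members called, the same 15 were called with RLE or upper-quartile factors, with scaling that left out the Mup genes and without robust settings, and DESeq2 added Mup-ps19 (16 genes). No filter gave 20 (without Mup2, Mup7 and Mup20) and filterByExpr 18 (without Mup7). Leaving out 1 mouse gave 11 to 15, of them 11 to 14 lower and 0 to 2 higher. The replicate block, which the labels do not support as a pairing (correlations of same-numbered mice between -0.20 and 0.0091), gave 13 and turned Mup12 to 0.028. The acute-phase covariate, chosen after seeing the data, left 2, both lower and 0 higher. The acute-phase score did not overlap between genotypes. Members called higher were 2 with DESeq2 and 0 without a filter. Leave-one-out values ran from -0.29 to 0.34 for Mup12, where the turned values were 0.34, 0.11 and 0.0069, and from -0.75 to 0.15 for Mup1. Of the 55 genes of the surrounding lists, 9 were called, and 4 to 11 when 1 mouse was left out, with 5 without WT mouse 2 or Thrb-KO mouse 4 and 4 without Thrb-KO mouse 3. The log2 ratio of the family sum was -0.43, -0.58 to -0.21 when 1 mouse was left out, and -1.38 when counts were divided by each copy's unique share, chosen after seeing the data. The median unique share of the tested members was 26.6% with 100-mers, 16.0% with 50-mers and 34.6% with 150-mers. The planned correction by the share of 100-mers unique in the genome was not run, because no genome was used here; transcripts stood in. Depth limits Mup-ps12, Mup-ps14 and Mup-ps15, at 2 counts or fewer per Thrb-KO library.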
